A study of Mus musculus with 10 samples.

Results

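CD49b+ and CD25+ cells, both CD4+ T cells sorted from the spleens of mice injected with immature dendritic cells, were compared gene by gene across 6 expression arrays, 3 for each population. All genes that the array annotation names through a probe set with 1 gene symbol were included, and where a gene had several such probe sets, that of highest mean over the 10 arrays was used. This gave 17097 genes, of which 11037 were tested because at least 2 of the 10 arrays exceeded their own 50th percentile, and 6060 were set aside as dim. The other 4 arrays held CD4+ cells, 2 from injected and 2 from naive mice. Their titles name only CD4 and do not say whether CD25+ or CD49b+ cells were left out.

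All mice were DBA/1, an inbred strain, with no other genotype given in the labels. Injected mice received 500000 immature dendritic cells, the resting form of the main antigen-presenting cells, into the peritoneum at each of 3 injections, given 7, 5 and 3 days before the spleens were taken. CD4+ cells were enriched with magnetic beads by removing other cells, then sorted by flow cytometry after staining for these 3 surface proteins: CD4, CD25 and CD49b. Cells of several mice were pooled for sorting, so that a replicate is a pool rather than an animal, and separate pools for the replicates of a group are not stated. The p-values therefore reflect only how these samples vary, and that variation may be technical. The labels used here also do not say whether the CD49b+ gate left out CD25+ cells, or the reverse. The ages of the mice are not given in the sources used here.

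CD25 is the alpha chain of the interleukin 2 receptor, encoded by Il2ra. On CD4+ cells it marks regulatory T cells, whose identity depends on the transcription factor Foxp3 and which restrain immune responses through surface receptors such as Ctla4 and by binding interleukin 2. It also appears for a time on recently activated conventional T cells. CD49b is the integrin alpha 2 chain, encoded by Itga2, which pairs with integrin beta 1 to bind collagen. On CD4+ cells it has been used, with Lag3, to mark type 1 regulatory T cells, which make interleukin 10 and need not express Foxp3, and it is also found on memory T cells and on natural killer cells. The comparison asks which transcripts separate these populations when both come from the same kind of injected mice.

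Levels are given on the deposited log2 scale, on which 1 unit corresponds to 2-fold. Every difference below is CD49b+ minus CD25+, and values by array are given in the order of replicates 1, 2 and 3. Values of a gene in CD4+ cells are from injected mice, unless naive mice are named. Over the genes tested, arrays of the same population correlated at 0.988 or more, and arrays of different populations at 0.947 to 0.969. The median log2 value of an array was 4.61 to 4.62 in CD49b+, 4.64 to 4.65 in CD25+ and 4.79 to 4.81 in CD4+ arrays. Replicate 3 stood apart in both populations by its poly-A spike-in controls, bacterial transcripts added during labelling. Their mean log2 signal was 8.66 in CD49b+ and 8.51 in CD25+ replicate 3, against 5.52 to 6.98 on the other 8 arrays, so the results were also computed without replicate 3 of both. The 3-prime minus 5-prime signal of Gapdh, a sign of RNA integrity, ran from 0.23 to 0.69 in CD49b+ and from 0.37 to 0.60 in CD25+ arrays, which overlap. For Actb it was 0.44 to 0.55 in CD49b+ and 0.63 to 0.67 in CD25+ arrays, which do not overlap, and its part in the results was not tested.

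The labels were set against the transcripts of the sorted proteins and against Foxp3. Il2ra was at 6.26, 6.37 and 6.23 in CD49b+ and at 9.09, 8.89 and 8.51 in CD25+ arrays. The groups are far apart, with a difference of -2.54 (SE 0.13), or 5.83-fold. As CD25 was part of the sort, this checks the labels and is not a finding. The level in CD49b+ cells was still above the 4.18 and 4.16 of CD4+ cells from injected mice. These CD4+ values lie under the medians of their arrays, at 4.802 and 4.805. Whether the CD4+ sort left out CD25+ cells was not tested. Foxp3 was at 6.58, 6.52 and 6.26 in CD49b+ and at 8.36, 8.34 and 8.06 in CD25+ arrays, a difference of -1.80 (SE 0.11, adjusted p = 2.97e-06, limma with Benjamini-Hochberg adjustment). For this gene, too, CD49b+ cells lay between CD25+ cells and CD4+ cells, the last at 4.57 and 4.70. In a bulk sample, fewer cells with a transcript and less of it per cell cannot be told apart.

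The transcript of CD49b itself separated the populations only weakly. Itga2 was at 5.59, 5.97 and 5.77 in CD49b+ and at 5.45, 5.53 and 5.43 in CD25+ arrays. The groups did not overlap, but they were close, and the difference was 0.31 (SE 0.10, adjusted p = 0.0349). The CD4+ arrays of injected mice, at 5.80 and 5.85, lay within the range of the CD49b+ arrays. This call was lost without CD49b+ replicate 2 (adjusted p = 0.108), CD49b+ replicate 3 (0.0789), CD25+ replicate 1 (0.09) or CD25+ replicate 3 (0.0877). Its partner Itgb1 was clearly higher in CD49b+ cells, as described with the integrins below. Cd4 was at 8.02, 7.82 and 7.83 in CD49b+ and at 7.64, 7.71 and 7.41 in CD25+ arrays. The difference of 0.30 (SE 0.09, adjusted p = 0.0326) was lost without CD49b+ replicate 1 (0.107) or 3 (0.0528), or without CD25+ replicate 1 (0.0543) or 3 (0.0987). Of the 4 sort markers tested, 2 were called higher and 1 lower. The count of higher calls was 0 without CD49b+ replicate 3, CD25+ replicate 1 or CD25+ replicate 3, and 1 without CD49b+ replicate 1 or 2.

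The populations differed widely. With called meaning an adjusted p under 0.05, 1926 genes were higher in CD49b+ cells (17.5% of the genes tested) and 1371 lower (12.4%), so that 29.9% were called in either direction. At an unadjusted p under 0.05 the shares were 23.5% and 16.8%. Most called differences were small: 277 genes (2.51%) were called higher and at least 2-fold, 285 (2.58%) lower and at least 2-fold, and 42 and 70 at least 4-fold. The smallest called fold was 1.15. The median difference over all genes tested was 0.03, and the median SE 0.10. All 3 CD49b+ arrays lay above all 3 CD25+ arrays for 2683 genes (24.3%), and below them for 1907 (17.3%). Whichever array was left out, 1267 of the higher and 932 of the lower genes were called.

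**Figure D1:**
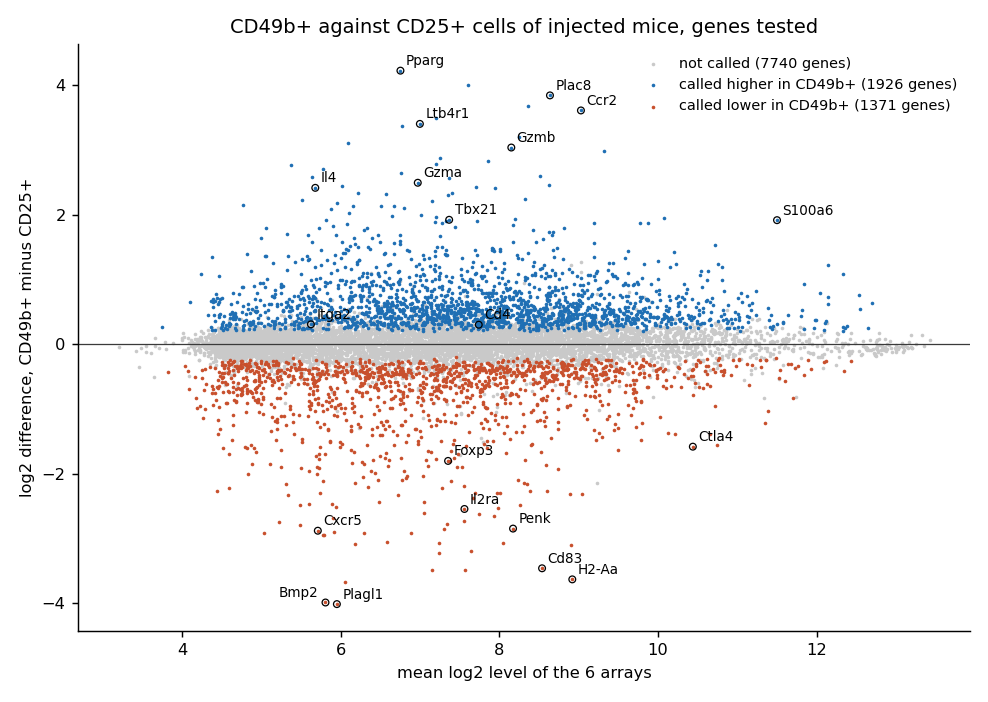
Difference in log2 level between CD49b+ and CD25+ cells (y axis) against the mean log2 level of the 6 arrays (x axis), 1 point per gene tested; blue points are the 1926 genes called higher in CD49b+, red points the 1371 called lower, grey points were not called, and ringed genes are named. The ringed genes run from Pparg at 4.22 to Plagl1 at -4.01, while Itga2 and Cd4 sit close to the line at 0.

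With gene models, such as numbered or accession-like symbols, passed over, the gene with the greatest difference was Pparg. It is a nuclear receptor that controls lipid uptake and storage and is found in some tissue regulatory and T helper 2 cells. It was at 8.84, 8.84 and 8.91 in CD49b+ and at 4.20, 4.74 and 4.97 in CD25+ arrays. CD49b+ cells were therefore high and even. CD25+ cells were much nearer to the CD4+ arrays, at 3.96 and 4.12, but above them. In the same limma fit CD25+ minus CD4+ was 0.60 (adjusted p = 0.0259). The difference was 4.22 (SE 0.16, adjusted p = 2.97e-07), or 18.7-fold. Ccr2, the receptor for a chemokine that draws monocytes and effector T cells to inflamed tissue, was at 10.55, 10.83 and 11.12 against 6.72, 6.70 and 8.25. CD25+ replicate 3 was the nearest CD25+ array, and the difference of 3.61 (SE 0.37, adjusted p = 7.76e-05) was shared by 3 of 3 other probe sets of the gene. Ltb4r1, the high-affinity receptor for leukotriene B4, was at 8.68, 8.56 and 8.86 against 4.72, 5.38 and 5.78, a difference of 3.40 (SE 0.22, adjusted p = 4.07e-06).

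Several other genes at this end act inside the cell. Epas1, an oxygen-regulated transcription factor, was at 9.80, 9.73 and 10.03 in CD49b+ against 6.26, 6.76 and 6.94 in CD25+ arrays, with CD4+ cells at 6.17 and 6.77. Tktl1, a transketolase-like protein, was at 8.63, 8.74 and 8.71 against 5.57, 6.02 and 5.84. Gzmb, the granule protease granzyme B, was at 9.41, 10.01 and 9.58 against 6.31, 6.73 and 6.85. In these 3 genes CD49b+ cells stood above both other populations of injected mice. The differences were 3.20 (SE 0.19), 2.88 (SE 0.11) and 3.04 (SE 0.19). Plac8, a small cysteine-rich protein, differed by 3.84 (SE 0.25) and Prxl2a, a redox protein related to peroxiredoxins, by 3.68 (SE 0.25). Ctla2a and Ctla2b, inhibitors of cathepsin proteases, differed by 2.99 (SE 0.32) and 3.37 (SE 0.22). They are close copies of each other, and the array may not tell their transcripts apart. Tmem273 differed by 3.11 (SE 0.16), with its other probe set dim.

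Pdlim4, a protein that binds the actin cytoskeleton, had another pattern. It was at 9.60, 9.66 and 9.58 in CD49b+ arrays and at 5.06, 5.83 and 5.91 in CD25+ arrays. CD4+ cells, at 9.44 and 9.98, were level with CD49b+ cells. The difference of 4.01 (SE 0.21, adjusted p = 1.35e-06) was thus set by a low value in CD25+ cells: CD25+ minus CD4+ was -4.11, and CD49b+ minus CD4+ was -0.10 (adjusted p = 0.736). The scaffold protein Themis, which acts downstream of the T cell receptor, had the same order. It was at 9.17, 8.93 and 9.18 in CD49b+, at 6.90, 7.12 and 7.72 in CD25+ and at 9.30 and 9.09 in CD4+ cells.

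At the other end stood Plagl1, a zinc finger transcription factor that is part of the regulatory T cell signature. It was at 3.75, 3.93 and 4.15 in CD49b+ and at 8.05, 8.38 and 7.43 in CD25+ arrays. The CD49b+ values lie below the median of their arrays, so the difference of -4.01 (SE 0.20, adjusted p = 1.12e-06) sets a high level against one near the dim end of the array. The same holds for Bmp2, a ligand of the TGF-beta superfamily, at 3.85, 3.96 and 3.63 against 8.41, 8.22 and 6.76, and for Kcnk1, a potassium channel, at 4.19, 4.30 and 4.13 against 8.09, 8.26 and 7.31. Bmp2 and Kcnk1 were just as low in CD4+ cells, at 3.84 and 3.88 and at 4.22 and 4.33. In all 3 genes CD25+ replicate 3 was the lowest CD25+ array. Sdc4, a cell-surface proteoglycan, was at 5.95, 6.09 and 5.43 against 9.51, 9.82 and 8.60, a difference of -3.49 (SE 0.28).

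Tubb2a, a beta-tubulin, showed low values in CD49b+ cells alone. It was at 5.51, 5.52 and 5.20 in CD49b+, at 9.13, 8.89 and 8.64 in CD25+ and at 8.51 and 8.75 in CD4+ arrays. Ephx1, an epoxide hydrolase of the endoplasmic reticulum, was at 6.04, 6.15 and 5.94 against 9.27, 9.26 and 9.16, with CD4+ cells at 8.09 and 8.19. It had the smallest SE of the 24 extreme genes, at a difference of -3.19 (SE 0.08, adjusted p = 4.49e-08). Ift80, a component of intraflagellar transport, differed by -3.10 (SE 0.12) and Hivep3, a zinc finger protein, by -3.06 (SE 0.15). Of the 135 named genes that were called, 63 had other probe sets. In 23 of these no other probe set was called the same way, Plagl1, Tubb2a, H2-Ob and Ahr among them, and in 0 was another called the opposite way. The other probe sets of Plagl1, Tubb2a and H2-Ob were dim and not tested, so they could not be called. That of Ahr was tested and not called, at a difference of 0.20.

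**Figure D2:**
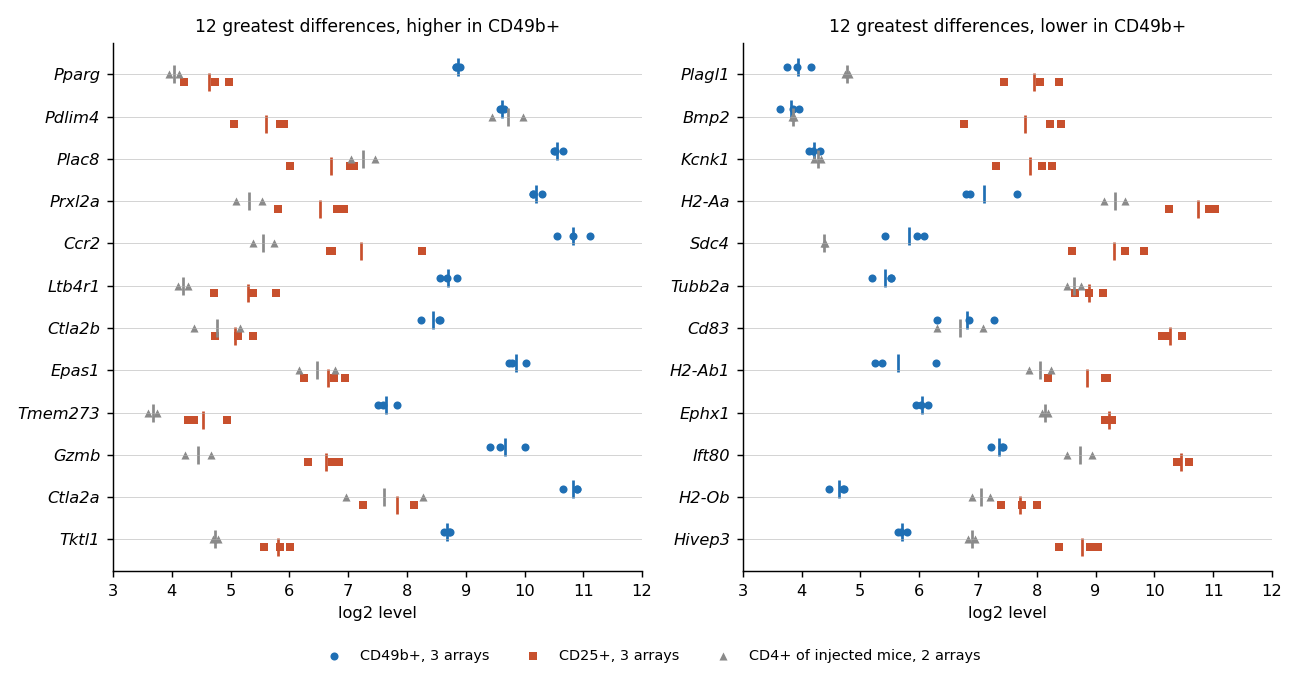
Log2 level on each array (x axis) of the 12 genes with the greatest difference in each direction: blue circles are CD49b+ arrays, red squares CD25+ arrays, grey triangles CD4+ arrays of injected mice, and vertical bars the group means. CD49b+ and CD25+ arrays do not overlap for any of the 24 genes, by the way they were chosen, which also passed over gene models. Depending on the gene, the CD4+ arrays lie with either population, between them or beyond both.

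The spread within the populations was not even. Among the 277 genes at least 2-fold higher in CD49b+ cells, replicate 3 was the CD25+ array nearest to the CD49b+ arrays in 158, replicate 2 in 97 and replicate 1 in 22. Among the 285 at least 2-fold lower, replicate 3 was the nearest in 214, replicate 2 in 49 and replicate 1 in 22. Replicate 3 of CD25+ cells was thus most often the array least unlike CD49b+ cells. Without replicate 3 of both populations, 1383 genes were called higher and 1126 lower. The cause of the unevenness was not tested.

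The gene lists below are described by the number of their tested members called in each direction, beside the 17.5% and 12.4% of all genes. The 35 lists hold 536 symbols; 466 of these are on the array with a usable probe set, and 401 were tested. Their members overlap, and no test of a list as a whole was made. The medians of the type 1 regulatory, suppressive, coinhibitory and T cell receptor lists lay within 0.03 of 0, and each changed sign when every array was centred on its median.

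**Figure D3:**
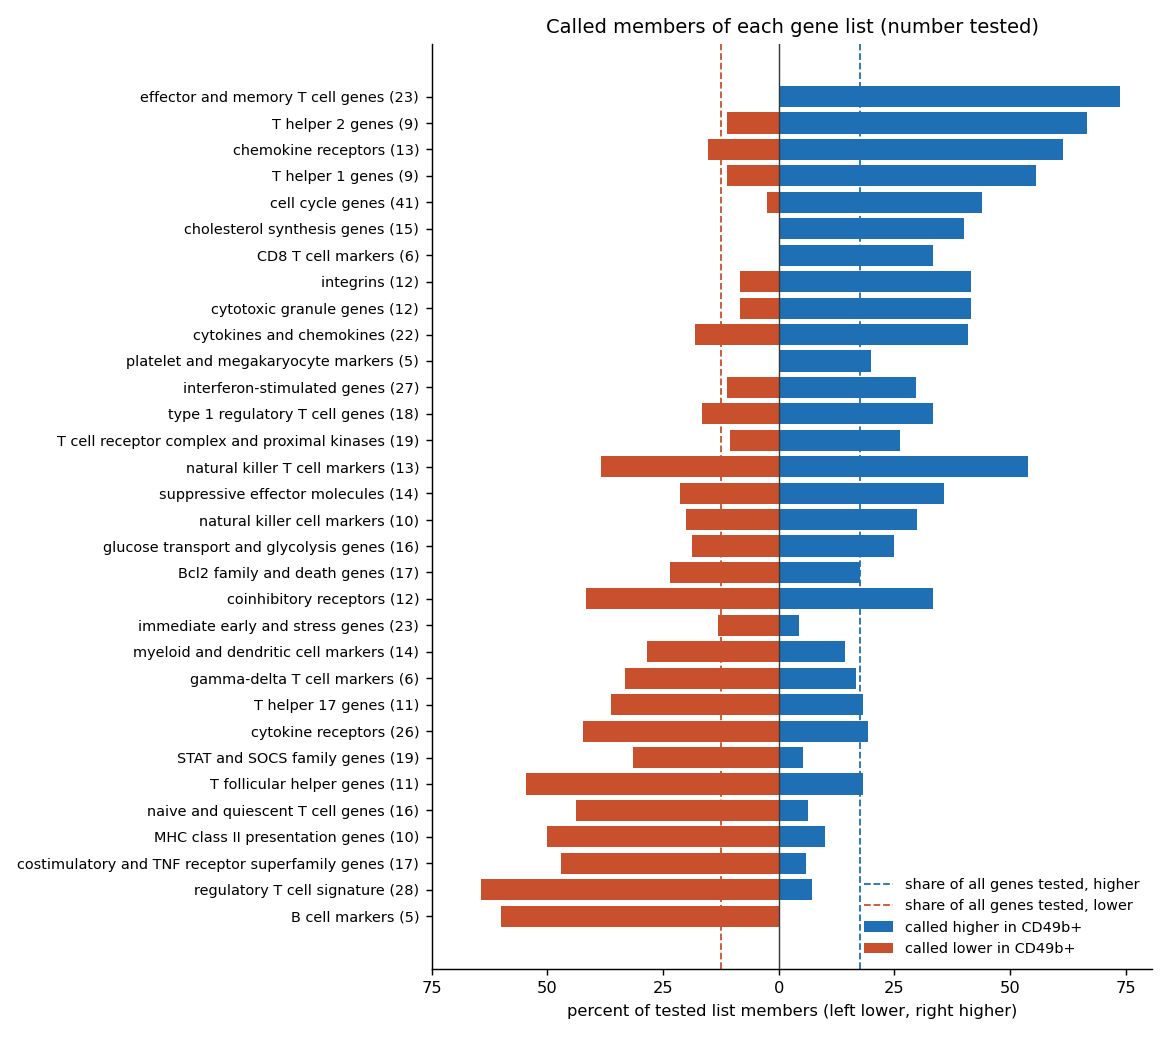
Percent of the tested members of each gene list (number in brackets) that were called higher in CD49b+ cells (blue, to the right) and lower (red, to the left); dashed lines mark the 17.5% and 12.4% of all genes tested. Effector and memory genes lie at the top, with 17 of 23 called higher and 0 lower, and the regulatory T cell signature near the bottom, with 2 of 28 higher and 18 lower.

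The regulatory T cell signature was mostly lower in CD49b+ cells. Of 32 genes 29 had a probe set and 28 were tested: 18 were called lower and 2 higher, with a median difference of -1.20. The 18 include Il2ra, the gene of the sort, which is no finding here. Ctla4, which competes with CD28 for its ligands, was at 9.95, 9.99 and 9.0 in CD49b+ and at 11.64, 11.44 and 10.62 in CD25+ arrays. Replicate 3 was the lowest array in each population, and the difference was -1.58 (SE 0.31, adjusted p = 0.00417). Penk, the precursor of enkephalin peptides, was at 6.91, 6.96 and 6.37 against 9.80, 9.57 and 9.41, a difference of -2.85 (SE 0.16). Tnfrsf9, the costimulatory receptor 4-1BB, was at 6.87, 6.89 and 6.72 against 9.22, 9.26 and 8.88, a difference of -2.29 (SE 0.11). Both were nevertheless above CD4+ cells, in which Penk was at 5.22 and 5.43 and Tnfrsf9 at 5.23 and 5.39. The transcription factors Ikzf2 (-1.56) and Ikzf4 (-2.15) were also called lower.

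The 2 members called higher were Klrg1 and Fgl2. Klrg1, an inhibitory receptor of mature effector cells that also marks a subset of regulatory T cells, was at 9.99, 10.07 and 9.95 in CD49b+ and at 8.72, 8.98 and 8.55 in CD25+ arrays. Both populations stood far above CD4+ cells, at 4.79 and 5.01, and the difference between them was 1.25 (SE 0.13, adjusted p = 8.15e-05). Fgl2, a secreted protein with suppressive activity, was at 7.76, 7.29 and 7.54 against 5.97, 6.13 and 5.82, a difference of 1.55 (SE 0.15).

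Genes linked to type 1 regulatory T cells went in both directions. Of 18 tested, 6 were called higher and 3 lower, with a median of -0.02. Il10, the cytokine that defines these cells, was at 5.47, 5.81 and 5.01 in CD49b+ and at 6.46, 7.03 and 5.74 in CD25+ arrays. The groups overlapped, and the difference of -0.98 (SE 0.29, adjusted p = 0.0295) was lost without CD49b+ replicate 1 (0.0624) or 3 (0.104), or without CD25+ replicate 1 (0.0859) or 2 (0.0792). Lag3, the surface receptor paired with CD49b in sorting such cells, was at 4.82, 4.86 and 4.94 against 4.98, 4.96 and 4.98. All of these values are low, and its difference of -0.10 was not called (adjusted p = 0.385, 95% interval -0.28 to 0.08). Ahr, a ligand-activated transcription factor, was at 9.55, 9.27 and 9.38 against 8.18, 8.15 and 7.51, above CD4+ cells at 5.20 and 5.33 in either population. Its difference was 1.45 (SE 0.17, adjusted p = 0.000182), from 1 of its 2 probe sets.

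Other members of this list differed less firmly. Egr2, a transcription factor of T cell receptor signalling, was at 6.25, 6.46 and 4.99 in CD49b+ and at 7.19, 7.46 and 6.81 in CD25+ arrays. Its difference of -1.25 (SE 0.33, adjusted p = 0.0164) was -0.80 without CD49b+ replicate 3, the lowest array, and was lost without CD25+ replicate 1 (0.0537) or 2 (0.0529). Il21, a cytokine of helper T cells, differed by 0.81 (SE 0.22, adjusted p = 0.0214), which was lost without CD49b+ replicate 2 (0.0753) or CD25+ replicates 1 (0.0839) or 3 (0.0547). Maf, a transcription factor of interleukin 10 producing cells, differed by 0.35 (SE 0.09, adjusted p = 0.0159), lost without CD49b+ replicate 1 (0.0549) or CD25+ replicate 1 (0.0578). Without CD25+ replicate 1, 2 members were called higher and 1 lower, and without CD25+ replicate 2, 1 lower. Without replicate 3 of both populations, 2 were called higher.

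Suppressive effector molecules were also divided, with 5 of 14 called higher and 3 lower. The granzymes Gzma and Gzmb and the secreted protein Fgl2 were higher in CD49b+ cells, while Penk and the ectoenzyme Nt5e were lower. Gzma was at 7.70, 8.56 and 8.38 in CD49b+ and at 5.26, 5.92 and 5.99 in CD25+ arrays, a difference of 2.49 (SE 0.23, adjusted p = 4.31e-05). CD4+ cells were at 4.24 and 4.25, the lowest of the 3 populations. Nt5e, known as CD73, which makes adenosine from AMP, was at 7.49, 7.42 and 7.38 against 9.45, 8.87 and 9.31. The groups are well apart, with a difference of -1.78 (SE 0.16), but its other probe sets were either not called or dim and not tested.

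Coinhibitory receptors were called in both directions, with 4 of 12 higher and 5 lower. Cd200r1, an inhibitory receptor for CD200, was at 8.01, 7.87 and 8.13 in CD49b+ and at 6.70, 6.61 and 6.54 in CD25+ arrays. Its ligand Cd200 was the reverse, at 5.28, 5.20 and 5.23 against 6.74, 6.71 and 6.89. The receptor differed by 1.39 (SE 0.10) and the ligand by -1.55 (SE 0.10). Cd160, a receptor of the immunoglobulin family, was also lower, with a difference of -1.40 (SE 0.13).

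Of 17 costimulatory and TNF receptor superfamily genes tested, 8 were called lower in CD49b+ cells, 1 higher and 8 not called, with a median of -0.34. Tnfrsf4, known as OX40, was at 9.05, 9.08 and 9.02 against 10.63, 10.50 and 10.44, a difference of -1.48 (SE 0.17). Fas, the death receptor, was at 7.25, 7.03 and 6.99 against 8.62, 8.62 and 8.53, a difference of -1.50 (SE 0.08), and below CD4+ cells at 7.95 and 7.86. Cd27 differed by -0.92 (SE 0.08). The ligand Ltb, a lymphotoxin subunit, was at 11.39, 11.31 and 11.18 against 12.16, 12.11 and 12.09, and Lta, its partner, at 6.19, 6.39 and 5.99 against 9.14, 9.02 and 8.57. Both lymphotoxin genes were lower in CD49b+ than in CD25+ cells, by differences of -0.83 (SE 0.07) and -2.72 (SE 0.16). The count called higher was 0 without CD49b+ replicate 1 or 3 or CD25+ replicate 1 or 2, and 2 with the replicate number as a block.

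Effector and memory T cell genes were higher in CD49b+ cells. Of 23 tested, 17 were called higher and 0 lower, with a median of 0.77, and 15 to 17 were called higher whichever array was left out. S100a6, a calcium-binding protein, was at 12.45, 12.51 and 12.41 in CD49b+ and at 10.24, 10.67 and 10.72 in CD25+ arrays, with CD4+ cells at 8.19 and 9.49. Anxa2, which links calcium signals to membranes and binds an S100 partner, had a mean of 10.81 ± 0.24 against 8.93 ± 0.49 (SD, n = 3 each), with CD4+ cells at 7.18 and 8.02. In both genes the order was CD49b+, CD25+, then CD4+ of injected mice, without overlap. CD4+ cells of naive mice were at 9.79 and 10.07 for S100a6, below all CD25+ arrays. For Anxa2 they were at 8.32 and 8.41, with CD25+ replicate 1 between them at 8.40. The differences between CD49b+ and CD25+ cells were 1.92 (SE 0.27) and 1.88 (SE 0.26). Nkg7, a protein of cytotoxic granules, was at 8.17, 8.63 and 7.96 against 5.30, 6.12 and 6.69, a difference of 2.22 (SE 0.35, adjusted p = 0.00111).

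Receptors that guide migration were mostly higher. Of 13 chemokine and related receptors tested, 8 were called higher and 2 lower, with a median of 0.80. Cxcr6, which binds a chemokine of liver and inflamed tissue, was at 11.16, 10.83 and 11.15 in CD49b+ and at 8.75, 8.42 and 10.11 in CD25+ arrays. As for Ccr2, CD25+ replicate 3 lay closest to CD49b+ cells, and the difference was 1.95 (SE 0.38, adjusted p = 0.00375). Cxcr3, a receptor for interferon-induced chemokines, differed by 1.11 (SE 0.20), Ccr10, a skin homing receptor, by 1.30 (SE 0.14) and Ccr4, a receptor of T helper 2 and regulatory cells, by 0.80 (SE 0.09). The 2 lower genes guide cells within lymphoid tissue and mucosa. Cxcr5, which brings T cells to B cell follicles, was at 4.47, 4.11 and 4.23 in CD49b+ and at 7.22, 7.27 and 6.96 in CD25+ arrays. The CD49b+ values lie under the median of their arrays, and the difference was -2.88 (SE 0.18). Ccr6, a receptor of mucosal and T helper 17 cells, was at 8.67, 8.56 and 8.51 against 10.35, 9.80 and 9.89, a difference of -1.43 (SE 0.15).

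Of the 12 integrin genes tested, 5 were called higher and 1 lower. Itgb1, the beta 1 chain that pairs with CD49b, was at 11.48, 11.32 and 11.65 in CD49b+ and at 9.82, 9.84 and 10.21 in CD25+ arrays, with CD4+ cells at 8.36 and 8.72. Unlike Itga2, its groups were over 1 log2 unit apart, with a difference of 1.53 (SE 0.15, adjusted p = 6.67e-05) and 3 of 4 other probe sets called the same way. Itgb3, the beta 3 chain, differed by 1.40 (SE 0.15), and Itgb7, the beta chain of gut homing integrins, by 0.46 (SE 0.08). Itga6, the alpha 6 chain, was lower, with a difference of -1.0 (SE 0.12). Without CD49b+ replicate 3, 3 integrin genes were called higher, and with the replicate number as a block 2 were called lower.

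Genes of several helper T cell types were compared. T helper 1 genes were mostly higher in CD49b+ cells, with 5 of 9 tested called higher and 1 lower and a median of 0.67. Tbx21, encoding T-bet, the transcription factor of T helper 1 cells, was at 8.67, 7.91 and 8.40 in CD49b+ and at 5.95, 5.83 and 7.43 in CD25+ arrays. CD25+ replicate 3 was again the closest, and the difference was 1.92 (SE 0.37, adjusted p = 0.00343). Runx3, which acts with T-bet, was at 9.56, 9.49 and 9.31 against 8.06, 8.40 and 7.96, a difference of 1.32 (SE 0.11). Ifng, which encodes interferon gamma, was not called, at a difference of 1.23 (SE 0.47). The chains of the interleukin 18 receptor, encoded by neighbouring genes, differed in direction. Il18r1, the binding chain, was at 9.29, 9.36 and 9.40 against 10.26, 10.20 and 10.20, and Il18rap, the signalling partner, at 8.80, 8.54 and 8.76 against 8.07, 7.88 and 8.15. The differences were -0.87 (SE 0.07, adjusted p = 2.4e-05) and 0.67 (SE 0.11, adjusted p = 0.00114).

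T helper 2 genes were also mostly higher, with 6 of 9 tested called higher and 1 lower. Il4, the cytokine that defines these cells, was at 6.99, 7.19 and 6.47 in CD49b+ and at 4.19, 4.08 and 5.14 in CD25+ arrays. CD25+ cells lay near CD4+ cells, at 4.16 and 4.35, and the difference was 2.41 (SE 0.27, adjusted p = 0.000136). Gata3, the transcription factor of this type, was at 10.84, 10.95 and 10.93 against 9.60, 9.49 and 9.35, a difference of 1.43 (SE 0.13). Both populations were above CD4+ cells in Gata3, at 7.96 and 8.50. Pparg, described above, belongs to this list. The count of 1 lower gene was 0 without CD49b+ replicate 1 or 3, or without CD25+ replicate 1 or 2.

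T follicular helper genes were mostly lower, with 6 of 11 tested called lower and 2 higher and a median of -0.58. Bcl6, the transcription factor that directs this type, was at 5.18, 5.26 and 4.88 in CD49b+ and at 7.54, 7.29 and 6.92 in CD25+ arrays. CD4+ cells, at 6.72 and 6.80, were nearer to CD25+ cells, and the difference was -2.14 (SE 0.16, adjusted p = 9.6e-06). Cxcr5 and Cd200, described above, were lower as well. The count of 2 higher genes, Il21 and Icos, was 0 without CD25+ replicate 1 and 1 without any other array.

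Among T helper 17 genes 4 of 11 were called lower and 2 higher. Tmem176a and Tmem176b, neighbouring genes for membrane channel proteins, moved together. Tmem176b was at 7.79, 8.0 and 7.88 in CD49b+ and at 10.31, 10.46 and 9.81 in CD25+ arrays, and Tmem176a at 6.70, 6.97 and 6.89 against 9.16, 9.56 and 8.73. The differences were -2.31 (SE 0.20) and -2.30 (SE 0.17). Il17a, the cytokine that defines this type, was not called, at a difference of 0.28. The count of 2 higher genes was 1 without CD49b+ replicate 2 or CD25+ replicate 1 or 3.

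Of 16 genes of naive and resting T cells tested, 7 were called lower in CD49b+ cells, 1 higher and 8 not called, with a median of -0.38. Bach2, a repressor of effector genes, was at 6.66, 5.93 and 6.69 in CD49b+ and at 9.53, 8.59 and 9.02 in CD25+ arrays, with CD4+ cells at 9.50 and 9.52. Bcl2, which guards against cell death, was at 7.96, 7.67 and 7.69 against 9.95, 9.57 and 9.59, with CD4+ cells at 10.20 and 9.90. In both genes CD25+ cells lay near CD4+ cells and CD49b+ cells apart from them, with differences of -2.62 (SE 0.25) and -1.93 (SE 0.13). Foxp1, which keeps naive cells at rest, differed by -1.33 (SE 0.15), and 6 of 6 other probe sets of it were called the same way. Id3, an inhibitor of E proteins, differed by -1.57 (SE 0.12) and Txk, a kinase of T cell receptor signalling, by -1.04 (SE 0.19). The gene called higher, Satb1, was not called without CD49b+ replicate 3.

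**Figure D4:**
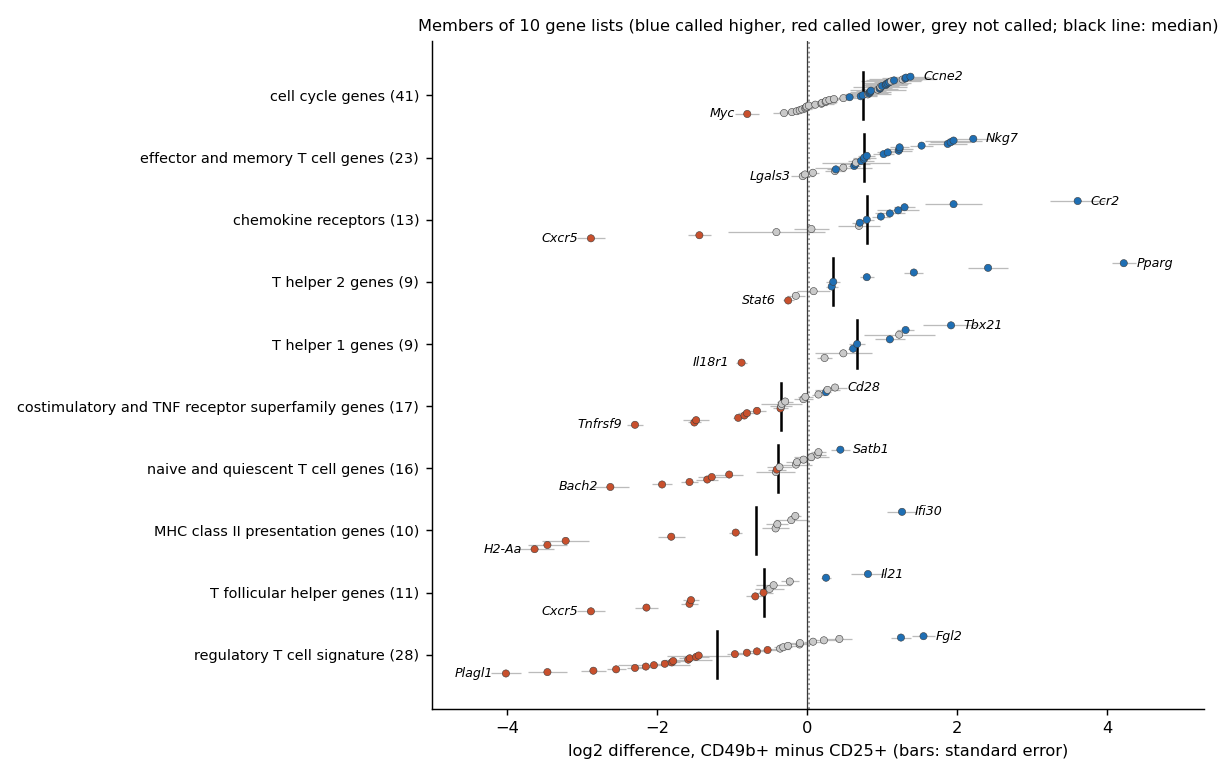
Log2 difference, CD49b+ minus CD25+ (x axis), of each tested member of 10 gene lists, with grey bars for the standard error; blue members were called higher, red lower and grey not called, black lines mark the list medians and the dotted line the median of all genes. Medians run from 0.80 for chemokine receptors and 0.74 for cell cycle genes to -1.20 for the regulatory T cell signature.

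Cytokine genes were called higher in 9 and lower in 4 of 22 tested. Csf1, the growth factor of macrophages, was at 9.28, 9.49 and 9.56 in CD49b+ and at 7.12, 7.12 and 7.37 in CD25+ arrays, with CD4+ cells at 5.95 and 6.09. The difference was 2.24 (SE 0.10, adjusted p = 8.21e-07), and 3 of 3 other probe sets were called the same way. Csf2, encoding GM-CSF, was at 6.67, 6.41 and 6.35 against 4.87, 5.04 and 5.16, a difference of 1.45 (SE 0.11). Tgfb3, a TGF-beta ligand, differed by 1.36 (SE 0.11). Growth factors of myeloid cells were thus among the higher cytokines, while Lta and Ltb, given above, were among the lower. Without CD25+ replicate 1, 2 cytokine genes were called lower.

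Cytokine receptors leaned the other way, with 11 of 26 tested called lower, Il2ra of the sort among them, and 5 higher. Il6st, the signalling chain shared by receptors of the interleukin 6 family, was at 6.65, 6.23 and 6.12 in CD49b+ and at 8.71, 8.35 and 8.28 in CD25+ arrays. Il6ra, the interleukin 6 binding chain, was at 7.66, 8.01 and 8.14 against 9.55, 8.79 and 9.27. Both chains were lower in CD49b+ cells than in CD25+ and CD4+ cells, the last at 8.82 and 8.85 for Il6st and at 10.03 and 9.77 for Il6ra. Their differences were -2.12 (SE 0.15) and -1.27 (SE 0.19). Il1r2, a decoy receptor for interleukin 1, was at 6.04, 6.62 and 5.91 against 7.99, 7.89 and 7.34, a difference of -1.55 (SE 0.21). Il1rl2, a receptor of the interleukin 1 family, was at 5.91, 5.82 and 5.72 against 4.08, 4.22 and 4.24, a difference of 1.64 (SE 0.09), with CD25+ values under the median of their arrays.

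Of the STAT and SOCS genes, which carry and damp cytokine signals, 6 of 19 tested were called lower and 1 higher. Stat5a was at 7.51, 7.34 and 7.39 in CD49b+ and at 8.11, 8.22 and 8.0 in CD25+ arrays, and its neighbour Stat5b at 8.63, 8.52 and 8.52 against 9.32, 9.09 and 9.09. These transcription factors act downstream of interleukin 2. Whether their levels go with that of Il2ra, the gene of the sort, was not tested. Their differences were -0.70 (SE 0.10) and -0.61 (SE 0.09), each from 1 probe set. The other probe set of Stat5a was dim and not tested, and that of Stat5b was not called. Jak2, a receptor-bound kinase, was the gene called higher, at 0.38 (SE 0.08). Socs3, a feedback inhibitor of cytokine signalling, differed by -1.26 (SE 0.33, adjusted p = 0.0168). That call was lost without CD49b+ replicate 1 (0.0519) or 3 (0.0609), or without CD25+ replicate 2 (0.0546). Without replicate 3 of both populations 3 members were called lower, and with the replicate number as a block 2 were called higher.

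Of 19 genes of the T cell receptor complex and its kinases, 5 were called higher, 2 lower and 12 not called. The CD3 chains Cd3d (0.08), Cd3e (0.18) and Cd3g (0.28) differed little, and Cd3g was called. Cd5, which tunes receptor signalling, was at 11.12, 11.13 and 11.10 in CD49b+ and at 10.81, 10.68 and 10.69 in CD25+ arrays, a difference of 0.39 (SE 0.07). Themis, given above, had the greatest difference of the list, at 1.85 (SE 0.18). Without CD25+ replicate 1, 2 genes were called higher. The count called lower was 1 without CD49b+ replicate 1 or 2 or without any 1 of the CD25+ arrays.

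Immediate early genes, which respond within minutes to receptor signals and to handling of cells, depended on the arrays used. Of 23 tested, 3 were called lower and 1 higher, with a median of -0.32, and with the replicate number as a block 11 were called lower and 2 higher. Nr4a3, a nuclear receptor induced by T cell receptor signals, was at 5.78, 6.06 and 5.33 in CD49b+ and at 7.43, 7.90 and 6.89 in CD25+ arrays. Replicate 2 was the highest and replicate 3 the lowest in each population, and the difference was -1.68 (SE 0.24, adjusted p = 0.000685), seen in 1 of 3 probe sets. The others were either not called or dim and not tested. Ier3, a stress-induced survival gene, was the member called higher, at 7.25, 7.69 and 6.79 against 4.77, 5.18 and 4.44. It showed the same order of replicates, and a difference of 2.45 (SE 0.27). The median was 0.02 without CD49b+ replicate 3, -0.64 without CD49b+ replicate 2, -0.66 without CD25+ replicate 3 and -0.12 without CD25+ replicate 2. Without CD49b+ replicate 2 and without CD25+ replicate 3, 6 and 5 genes were called lower, and without CD25+ replicate 1 or 2, 1.

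Among the 12 cytotoxic granule genes tested, 5 were called higher in CD49b+ cells and 1 lower. Gzma, Gzmb and Nkg7 are given above. The cathepsins Ctsw and Ctsc, the second of which activates granzymes, differed by 0.97 (SE 0.23, adjusted p = 0.00916) and 0.73 (SE 0.13, adjusted p = 0.00247). Ctsw was at 9.92, 9.93 and 9.66 in CD49b+ and at 8.46, 8.71 and 9.42 in CD25+ arrays, with CD25+ replicate 3 the closest. Prf1, the pore-forming protein through which granzymes enter target cells, did not share this, with a difference of 0.00 that was not called. The gene called lower was not called without CD49b+ replicate 2 or 3 or without CD25+ replicate 1 or 2.

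Of 10 genes of MHC class II presentation tested, 5 were called lower in CD49b+ cells and 1 higher, with a median of -0.68. In 7 of them all CD25+ arrays lay above all CD49b+ arrays, beside 17.3% of all genes. MHC class II molecules display peptides to CD4+ T cells and are made mainly by B cells, dendritic cells and macrophages. H2-Aa, the alpha chain of the class II molecule, was at 6.86, 7.66 and 6.79 in CD49b+ and at 10.93, 11.02 and 10.25 in CD25+ arrays. CD4+ cells of injected mice lay between them, at 9.14 and 9.51, but those of naive mice were at 10.96 and 11.09. H2-Ab1, the beta chain, was at 5.24, 6.29 and 5.36 against 9.15, 9.19 and 8.20. CD49b+ replicate 2 was the highest CD49b+ array for both chains, and the differences were -3.63 (SE 0.26, adjusted p = 7.06e-06) and -3.22 (SE 0.31, adjusted p = 5.72e-05). Cd74, the invariant chain that accompanies class II molecules, was at 6.37, 6.70 and 6.35 against 8.42, 8.56 and 7.86. Cd83, a surface protein that slows the turnover of class II molecules, was at 6.84, 7.28 and 6.30 against 10.22, 10.46 and 10.12, with CD4+ cells at 6.30 and 7.08. H2-Ob, which restrains peptide loading and was not on the list, was at 4.71, 4.72 and 4.47 against 8.0, 7.75 and 7.40. CD4+ cells of naive mice were above all CD25+ arrays for H2-Ab1, at 9.61 and 9.74, and for H2-Ob, at 8.39 and 8.76. For Cd83 they were below them, at 7.78 and 8.10.

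H2-DMb2, a beta chain of the H2-DM molecule that loads peptides, is not on the list and was chosen after its values were seen. It was at 5.36, 5.76 and 5.33 against 6.55, 6.69 and 6.05, a difference of -0.95 (SE 0.19, adjusted p = 0.00387). Its close copy H2-DMb1 was dim, at 3.39, 3.56 and 3.66 against 4.35, 4.37 and 3.89, and the array may not tell the copies apart. H2-Eb1 (-0.42), H2-DMa (-0.21) and the class II transactivator Ciita (-0.15) were not called. Ifi30, a thiol reductase that prepares proteins for loading, was the gene called higher, at 8.35, 8.70 and 8.52 against 6.83, 7.53 and 7.41, a difference of 1.27 (SE 0.21). Class II promoters are known for a conserved pair of elements, the X and Y boxes, that Ciita acts through. The promoters of H2-Aa and H2-Ob, which were lower, are shown with that of H2-Eb1, which was not called, to set the same pair of elements beside unlike differences. They are the 250 bases before the start of transcription in RefSeq (build GRCm38.p6), written 5′ to 3′ on the strand of the gene. The sequence is that of this build and was not read in the DBA/1 mice. Capitals mark GCAAC, a core of the X box, and TGATTGG, a core of the Y box that holds an inverted CCAAT, where 20 to 30 bases lie between them.
H2-Aa, chr17:34287824-34288073, minus strand: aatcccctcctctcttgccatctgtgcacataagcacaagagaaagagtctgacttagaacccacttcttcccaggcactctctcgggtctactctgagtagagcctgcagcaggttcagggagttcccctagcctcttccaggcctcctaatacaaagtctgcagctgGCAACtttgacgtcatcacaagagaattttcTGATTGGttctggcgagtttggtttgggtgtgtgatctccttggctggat
H2-Ob, chr17:34238655-34238904, plus strand: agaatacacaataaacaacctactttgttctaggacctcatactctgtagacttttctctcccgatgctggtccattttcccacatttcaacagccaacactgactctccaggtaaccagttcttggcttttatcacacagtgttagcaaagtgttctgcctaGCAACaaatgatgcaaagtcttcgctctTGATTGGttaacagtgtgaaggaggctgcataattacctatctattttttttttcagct
H2-Eb1, chr17:34305617-34305866, plus strand: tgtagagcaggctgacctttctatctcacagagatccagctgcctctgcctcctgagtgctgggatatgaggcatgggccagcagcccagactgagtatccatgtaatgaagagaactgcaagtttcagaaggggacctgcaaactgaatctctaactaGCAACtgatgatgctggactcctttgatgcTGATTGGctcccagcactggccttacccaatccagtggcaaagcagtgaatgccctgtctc
The pair stood 81 and 50 bases before the start of H2-Aa, 87 and 59 before that of H2-Ob and 91 and 61 before that of H2-Eb1, with gaps of 26, 23 and 25 bases. Of the 8936 tested genes with a promoter in the table, 15 (0.168%) held the pair on either strand. These letters were chosen after the class II promoters had been read, so that the share describes them and tests nothing. Of these, H2-Aa, H2-Ob and Ift74 (-0.67) were called lower, Cwc15 (0.38) was called higher, and the other 11 were not called, H2-Oa (0.05) and H2-Eb2 (-0.10) among them. H2-Ab1 was not in the promoter table. By these letters the promoters of H2-DMb2, which was called lower, of H2-DMa and of H2-DMb1 did not hold the pair.

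Markers of other cells that carry class II molecules are given beside these values. Of the B cell markers 12 had a probe set and 5 were tested, of which 3 were called lower in CD49b+ cells and 0 higher. The 12 had a mean log2 level of 4.31 to 4.40 in CD49b+, 4.48 to 4.59 in CD25+ and 4.65 to 4.74 in CD4+ arrays of injected mice. Of these, 7 lay under the array median on all CD49b+ and all CD25+ arrays, and Ms4a1, Pax5, Ebf1 and Ighm were dim. Cd79b was at 5.47, 5.53 and 5.14 against 5.88, 6.13 and 5.84, and Cd22 at 5.96, 5.88 and 6.13 against 6.45, 6.66 and 6.65. Their part in the class II differences was not tested.

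Myeloid and dendritic cell markers were called lower in 4 and higher in 2 of 14 tested, out of 19 with a probe set. Their mean log2 level was 5.09 to 5.23 in CD49b+ and 5.37 to 5.54 in CD25+ arrays, which do not overlap. It was 5.54 to 5.61 in CD4+ arrays of injected mice and 6.0 to 6.2 in those of naive mice. Fcer1g, a signalling chain of immunoglobulin receptors, was at 4.37, 4.94 and 4.73 against 7.17, 7.77 and 6.65, and Batf3, a transcription factor of dendritic cells and some T cells, at 5.56, 5.72 and 5.68 against 7.72, 7.86 and 7.03. Cybb, a subunit of the phagocyte oxidase, was at 4.91, 5.12 and 4.78 against 6.75, 6.50 and 6.32. These are the greatest differences of the list, at -2.52 (SE 0.25), -1.89 (SE 0.18) and -1.59 (SE 0.16). Lyz2 and Itgam, which define macrophages and granulocytes, were dim, and Csf1r (-0.02) and Flt3 (-0.12) were not called. The part of such cells in the differences was not tested. The count called higher was 1 without CD49b+ replicate 3 or CD25+ replicate 2.

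Cells other than conventional CD4+ T cells can carry CD49b, natural killer cells above all. Of the natural killer cell markers 15 had a probe set and 10 were tested, of which 3 were called higher and 2 lower. Their mean log2 level was 4.90 to 5.20 in CD49b+ and 5.02 to 5.13 in CD25+ arrays, which overlap. The higher members were Gzma, given above at a difference of 2.49, Klrd1 and Klrk1, and the lower ones Fcer1g and Klrb1f. Klrk1, encoding NKG2D, differed by 0.32 (SE 0.11, adjusted p = 0.0446), and its groups overlapped. The call of Klrk1 was lost without CD49b+ replicate 2 or 3 or without CD25+ replicate 1 or 2, at adjusted p = 0.136, 0.0946, 0.147 and 0.121. Klrb1c, encoding NK1.1, was dim, and Ncr1 (-0.08), Eomes (-0.20) and Prf1 were not called. Klrd1, encoding CD94, was at 6.76, 7.10 and 6.58 in CD49b+ and at 4.86, 5.02 and 6.21 in CD25+ arrays, with CD4+ cells at 7.29 and 7.11. Its difference was 1.45 (SE 0.30, adjusted p = 0.0054), with CD25+ replicate 3 the closest. Klrb1f, a lectin-like receptor, was lower in CD49b+ cells, with a difference of -2.23 (SE 0.16).

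Natural killer T cell markers were called higher in 7 and lower in 5 of 13 tested. Il4, Tbx21, Cxcr6 and Klrd1, which are among the higher ones, also belong to the helper, effector or natural killer lists. Zbtb16, the transcription factor that defines natural killer T cells, was at 4.59, 4.37 and 4.62 in CD49b+ and at 5.30, 5.19 and 5.85 in CD25+ arrays, a difference of -0.92 (SE 0.15). The CD49b+ values lie near the median of their arrays. Its other probe set differed by -0.07 and was not called. The list's mean log2 level was 7.53 to 7.61 in CD49b+ and 7.05 to 7.63 in CD25+ arrays, which overlap. Cd8a was the same in both populations at a mean of 4.53, and 2 of 6 CD8 T cell markers tested, Klrd1 and Runx3, were called higher. Of 6 gamma-delta T cell markers 1 was called higher and 2 lower, and the higher one was lost without CD49b+ or CD25+ replicate 1. Neutrophil and basophil markers were called in 0 of 2 tested, with 10 more dim, and had 0 below an unadjusted p of 0.05. In platelet markers 1 of 5, Itgb3, was called higher, and in erythroid markers 1 of 4, Car2, was called lower, at a difference of -1.99 (SE 0.18).

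Some cell cycle genes were higher in CD49b+ cells. Of 41 tested, 18 were called higher, 1 lower and 22 not called, with a median of 0.74. Ccnb2, a cyclin that drives entry into mitosis, was at 8.42, 9.07 and 9.33 in CD49b+ and at 6.92, 7.76 and 8.19 in CD25+ arrays, with CD4+ cells at 4.93 and 5.46. Aurkb, a kinase of chromosome segregation, was at 7.16, 7.70 and 8.25 against 5.88, 6.48 and 6.83, with CD4+ cells at 4.63 and 4.74. In both genes the numbered replicates kept their order across the populations, with replicate 3 the highest of each. The differences were 1.32 (SE 0.33, adjusted p = 0.0127) and 1.31 (SE 0.28, adjusted p = 0.00626). Ccne2, a cyclin of the start of DNA synthesis, differed by 1.38 (SE 0.25), and E2f2, a transcription factor of the cycle, by 1.10 (SE 0.20). E2f2 lies next to Id3, which differed by -1.57.

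The calls in this list rested on particular arrays. Without CD49b+ replicate 3, 9 genes were called higher, without CD25+ replicate 1, 10, and without CD25+ replicate 3, 23. With the replicate number as a block 27 were called higher and 2 lower. Ccna2, the cyclin of DNA synthesis and mitosis, was at 8.06, 8.69 and 9.16 against 6.60, 7.73 and 8.08, so that the groups overlapped, and its difference was 1.16 (SE 0.37, adjusted p = 0.0387). It was lost without CD49b+ replicate 2 (0.0916) or 3 (0.13) or CD25+ replicate 2 (0.05), and was 0.73 without CD25+ replicate 1 (0.108). The median of the 41 genes was 8.42, 8.69 and 8.78 on CD49b+ arrays and 7.57, 8.0 and 8.19 on CD25+ arrays, higher in CD49b+ cells at each replicate number.

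The list did not move as a whole. The 6 genes of the MCM helicase, which loads onto DNA before it is copied, were not called, with differences from -0.02 for Mcm6 to 0.26 for Mcm2. Myc, a transcription factor of growth and metabolism, was the gene called lower, at -0.80. Mitotic genes such as Mki67 (1.00), Top2a (1.06), Cdc20 (0.84) and Cenpa (0.85) were called higher. These genes were picked after their values were seen, to show the range within the list.

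**Figure D5:**
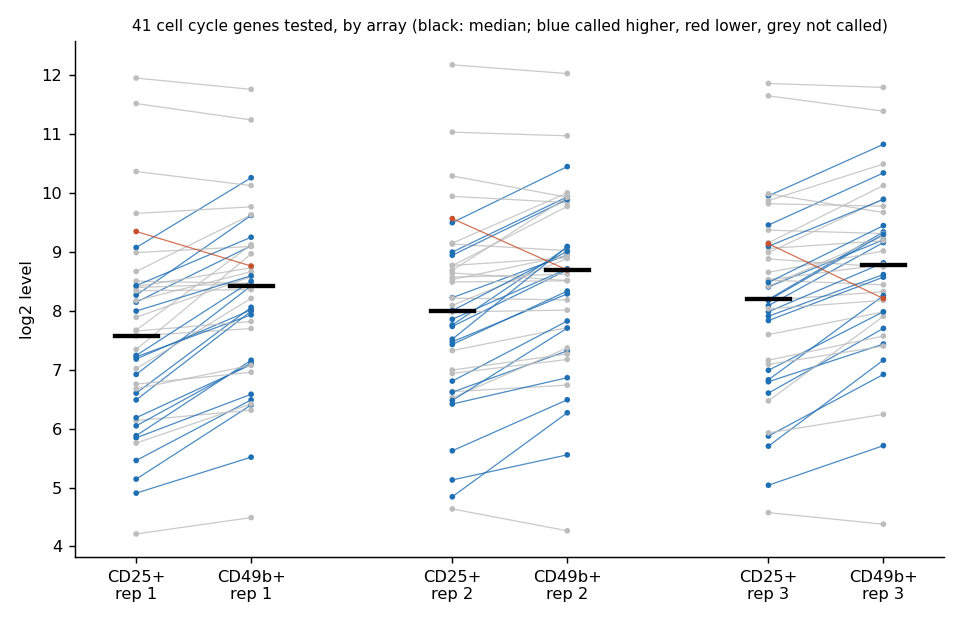
Log2 level (y axis) of the 41 cell cycle genes tested on each CD25+ and CD49b+ array (x axis), with arrays of the same replicate number side by side and lines joining each gene; blue genes were called higher in CD49b+, red lower, grey not called, and black bars are medians. The median is higher in CD49b+ cells at each replicate number, at 8.42 against 7.57, 8.69 against 8.0 and 8.78 against 8.19.

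Promoters of mitotic genes are known to hold repeated CCAAT boxes, which the factor NF-Y binds. The promoters of Ccnb2, Top2a, which encodes a topoisomerase that untangles chromosomes, and Cdc20, an activator of the anaphase-promoting complex, are shown as examples from genes called higher. As above, they are the 250 bases before the RefSeq start (build GRCm38.p6), 5′ to 3′ on the strand of the gene, and capitals mark CCAAT or its reverse complement ATTGG.
Ccnb2, chr9:70421555-70421804, minus strand: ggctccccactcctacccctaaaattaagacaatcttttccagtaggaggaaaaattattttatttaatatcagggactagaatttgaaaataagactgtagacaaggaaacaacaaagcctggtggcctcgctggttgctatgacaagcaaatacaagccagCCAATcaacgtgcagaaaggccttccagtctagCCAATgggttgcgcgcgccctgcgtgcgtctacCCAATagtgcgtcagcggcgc
Top2a, chr11:99024190-99024439, minus strand: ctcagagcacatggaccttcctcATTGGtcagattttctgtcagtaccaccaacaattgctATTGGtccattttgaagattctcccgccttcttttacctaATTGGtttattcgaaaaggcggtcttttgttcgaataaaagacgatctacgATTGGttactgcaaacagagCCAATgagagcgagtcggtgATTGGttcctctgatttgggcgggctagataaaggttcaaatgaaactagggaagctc
Cdc20, chr4:118437344-118437593, minus strand: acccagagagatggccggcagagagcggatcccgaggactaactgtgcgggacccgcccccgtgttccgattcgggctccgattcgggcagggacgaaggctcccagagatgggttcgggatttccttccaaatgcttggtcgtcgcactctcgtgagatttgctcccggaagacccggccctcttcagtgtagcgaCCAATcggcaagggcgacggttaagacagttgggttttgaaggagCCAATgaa
Ccnb2 held the box 87, 54 and 21 bases before the start, Top2a held 6 copies between 227 and 58 bases before it, and Cdc20 held 2, at 53 and 8. On either strand, 22 of the 34 tested cell cycle genes with a promoter in the table held the box (64.7%), and 9 of the 15 called higher (60.0%). All 8936 tested genes with a promoter held it in 36.0%, the genes at least 2-fold higher in 36.4% and those at least 2-fold lower in 34.5%. The genes that differed most between the populations therefore held the box about as often as all genes. The motif and the genes shown were chosen with the values known, and a match is a description of letters.

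Metabolic genes were called in both directions. Of 16 glycolysis genes tested, 4 were called higher and 3 lower, with a median of 0.21, or 0.13 without CD25+ replicate 1. The lactate dehydrogenase genes differed in direction. Ldha, the form that favours lactate production, was at 11.30, 11.34 and 11.52 in CD49b+ and at 10.57, 10.66 and 10.99 in CD25+ arrays, and Ldhb at 6.39, 6.58 and 6.40 against 8.59, 8.87 and 8.47. The differences were 0.65 (SE 0.11, adjusted p = 0.00191) and -2.19 (SE 0.12, adjusted p = 1.52e-06). Eno3, an enolase typical of muscle, was at 7.14, 7.12 and 6.77 against 9.56, 9.53 and 9.39, a difference of -2.48 (SE 0.11), with CD4+ cells at 7.46 and 7.49. Pgk1, a central glycolytic enzyme, differed by 0.59 (SE 0.11).

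Of 15 cholesterol synthesis genes tested, 6 were called higher and 0 lower, with a median of 0.27. Sqle, a rate-limiting enzyme of the pathway, was at 7.32, 7.39 and 7.60 in CD49b+ and at 6.55, 6.80 and 6.85 in CD25+ arrays, a difference of 0.70 (SE 0.11). Srebf2, the transcription factor that controls the pathway, was at 8.54, 8.73 and 8.69 against 8.08, 8.13 and 7.99, a difference of 0.59 (SE 0.08), though its other probe set was not called. Cyp51 differed by 0.61 (SE 0.12). Without CD49b+ replicate 2 or CD25+ replicate 3, or with the replicate number as a block, 1 member was called lower.

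Interferon-stimulated genes went in both directions, with 8 of 27 tested called higher and 3 lower and a median of -0.05. Rsad2, an antiviral enzyme, was at 6.82, 6.20 and 6.18 in CD49b+ and at 5.79, 5.40 and 5.42 in CD25+ arrays, and Mx1, an antiviral GTPase, at 5.85, 5.68 and 5.41 against 5.01, 5.05 and 4.94. Ifit2, an antiviral RNA-binding protein, was at 7.46, 7.0 and 6.81 against 8.13, 8.01 and 7.82. Genes of the same class therefore differed in sign, at 0.86 (SE 0.19), 0.65 (SE 0.13) and -0.90 (SE 0.18). Gbp3, a GTPase induced by interferon gamma, was lower as well, with a difference of -0.65 (SE 0.11). Without CD49b+ replicate 1, 5 were called higher, without CD25+ replicate 3, 6 were called lower, and with the replicate number as a block 7 were called lower.

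Genes that control cell death were called higher in 3 and lower in 4 of 17 tested. Bcl2 and Fas, given above, were both lower in CD49b+ cells, although Bcl2 guards against death and Fas triggers it. Bak1, which opens the mitochondrial membrane in dying cells, was at 6.76, 6.57 and 6.47 in CD49b+ and at 5.59, 5.70 and 5.64 in CD25+ arrays. The protease Casp1, which matures interleukin 1 and interleukin 18, was at 9.66, 9.68 and 9.61 against 8.80, 9.10 and 8.75. Bak1 and Casp1 were higher in CD49b+ cells, with differences of 0.96 (SE 0.09) and 0.76 (SE 0.16), and so was Bad, which opposes Bcl2, at 0.62 (SE 0.13).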

How the data were processed

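RNA of sorted, pooled cells was hybridised to 10 Affymetrix mouse arrays. The log2 values were used as deposited by the authors; the submitters' processing notes name GCRMA and Affymetrix Expression Console 1.2.1, with no statement of whether the arrays were normalized jointly. Of 45141 probe sets, 104 were controls, 28898 had 1 gene symbol, 551 several and 15588 none here. Genes were fitted with limma 3.58.1 (R 4.3.3) as 4 group means over 10 arrays (6 residual degrees of freedom). p-values were two-sided and Benjamini-Hochberg adjusted over 11037 genes.

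The members, gene lists and families were chosen with earlier results of these data known. Genes named by rule were 12 in each direction, 7 fixed genes and, from each list, up to 5 called members with the greatest difference. The 12 were the most different called genes whose CD49b+ and CD25+ arrays did not overlap, with gene models passed over. List members named beyond these were chosen after their values were seen. Deviations of same-numbered CD49b+ and CD25+ arrays from their group means correlated at 0.158, 0.366 and 0.641. On that basis alone, taken from the data and not from the labels, the numbers may pair the arrays; the fit reported has no block, and the fit with the number as a block was an alternative. Promoters came from RefSeq (GRCm38.p6). Alternatives covered the dim-gene filter, scaling, array weights, variance model, probe set choice, the arrays fitted, the replicate block and leaving out each array. The fit was tested on simulated data.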

Additional observations from a re-analysis of the deposited data

How the results depend on the processing

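All 136 named genes kept their direction under every alternative in which they had a value, and 17 of them lost a call in at least 1. Of the called genes, 277 higher and 285 lower passed a 2-fold threshold as well. Leaving out each array in turn gave 1390 (without CD25+ replicate 1) to 1912 higher and 1080 (without CD49b+ replicate 3) to 1405 lower genes. With the replicate number as a block, in the 6 arrays compared, 2283 genes were called higher and 1673 lower, and no named gene changed its call; without the block these 6 arrays gave 1618 and 1141. Centring each array on its median gave 2219 higher and 1231 lower, so that 64.3% of calls were higher against 58.4%. Dusp2, a phosphatase of MAP kinases, went from -0.92 to -0.61 (adjusted p = 0.0994) without CD49b+ replicate 3. Among the genes called and at least 2-fold, 41 of the 285 lower and 16 of the 277 higher had values near the dim end. In these the population with the lower level lay under its array medians, where signal limits the size of a difference.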

Other observations

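Gene families outside the lists were counted after the values had been seen, and are given as values only. Their counts stand beside 17.5% of all genes called higher and 12.4% called lower. Among the Ifitm proteins, which block virus entry, 3 of 5 tested were called higher in CD49b+ cells and 0 lower: Ifitm3 (2.78), Ifitm2 (2.14) and Ifitm1 (1.68). Of 7 annexins 6 were called higher and 0 lower, with Anxa4 at 1.38. Of 8 S100 proteins 5 were called higher and 0 lower, with a median of 0.74. Among 7 galectins 4 were called higher and 0 lower, with Lgals7 at 2.34. Lower calls prevailed in some families. Of 6 guanylate-binding proteins 4 were called lower and 0 higher, with Gbp8 at -2.47 and Gbp10 at -1.47, and of 8 Gimap genes, which support lymphocyte survival, 5 were called lower and 0 higher, with Gimap3 at -0.71. Of other families that bind guanosine triphosphate, 13 of 51 Rab genes were called higher and 3 lower, and 3 of 8 septins higher and 0 lower.

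The counts below stand beside the same shares of all genes, 17.5% called higher and 12.4% called lower. Of 69 cytosolic ribosomal proteins 0 were called higher and 2 lower. Of 72 mitochondrial ribosomal proteins 19 were called higher and 3 lower, from -1.19 for Mrps6 to 0.93 for Mrpl33. Proteasome subunits were called higher in 9 and lower in 1 of 36. Among 217 Zfp zinc finger genes 6 were called higher and 45 lower, although their median was -0.06. Among 16 sialyltransferases, which cap surface sugars, 5 were called higher and 2 lower, from 2.60 for St3gal6 to -2.16 for St8sia6.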
